A study of Mus musculus with 18 samples.

Results

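The ERBB receptors and their ligands were followed in 18 mouse mammary tumors. They were taken by name: the 4 receptors Egfr, Erbb2, Erbb3 and Erbb4 and the 6 ligands Areg, Ereg, Nrg1, Btc, Hbegf and Tgfa, which are 10 of the 57126 genes in the count table. The 7 MaP R172H/-, 5 MaP R245W/- and 6 MaP -/- tumors came from 7, 5 and 4 female mice, F1 hybrids of BALB/c and C57BL6/J by the study's methods. Adenovirus carrying Cre recombinase had been injected into the mammary ducts of all of these mice, including those of the MaP -/- group. In the recombined epithelial cells, MaP R172H/- tumors kept a Trp53 allele coding for p53R172H and lacked the other, MaP R245W/- tumors kept an allele coding for p53R245W, and MaP -/- tumors had lost both. The stroma of each tumor was not recombined, and some mice of the mutant groups also carried the reporter allele Rosa26 LSL-TdTomato/+. The MaP -/- mice JM663 and JM833 each gave 2 tumors. All MaP R172H/- libraries were read on a HiSeq4000 instrument and all others on a NovaSeq instrument, so instrument and genotype cannot be told apart in any comparison of MaP R172H/- tumors.

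ERBB receptors are tyrosine kinases of the cell surface that work in pairs. Egfr binds epidermal growth factor, amphiregulin (Areg), epiregulin (Ereg), betacellulin (Btc), HB-EGF (Hbegf) and TGF-alpha (Tgfa), whereas Erbb3 and Erbb4 bind neuregulins such as Nrg1. Erbb2, the mouse HER2 gene, has no ligand of its own and is the preferred partner of the others, and Erbb3 has little kinase activity and signals through its partner. The ligands are made as membrane proteins and are shed by ADAM proteases. In the mammary gland Areg carries the signal of the estrogen receptor in duct growth, and amplification of HER2 defines a class of human breast cancer.

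The libraries held between 23113578 and 37365062 counts. Levels are given as CPM, the counts a gene would have in a library of 1000000, on library sizes scaled by the TMM method over all 18 tumors. Trp53, the targeted gene, had a mean of 40.6 CPM in MaP R172H/-, 26.8 CPM in MaP R245W/- and 13.8 CPM in MaP -/- tumors, and the ranges of all 3 groups overlapped. In the MaP R172H/- tumor YZ11 it was at 10.8 CPM, against 41.4 to 50.3 CPM in the other 6, and in MaP R245W/- tumors it ran from 9.09 to 59.0 CPM. The tumors differed in cell content: the sum of 20 epithelial markers ran from 592 to 14057 CPM in MaP R172H/-, from 591 to 8880 CPM in MaP R245W/- and from 192 to 4314 CPM in MaP -/- tumors. YZ7 (592 CPM), JM1233 (591 CPM) and JM779-T1 (192 CPM) were the lowest of their groups, and no epithelial marker was at 0 in any of the 18 tumors. JM1126 had the highest sum of 10 fibroblast markers, 33708 CPM, and JM1233 the highest sum of 10 skeletal muscle markers, 1213 CPM. In such bulk samples, fewer cells of a type and less RNA per cell cannot be told apart.

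**Figure D1:**
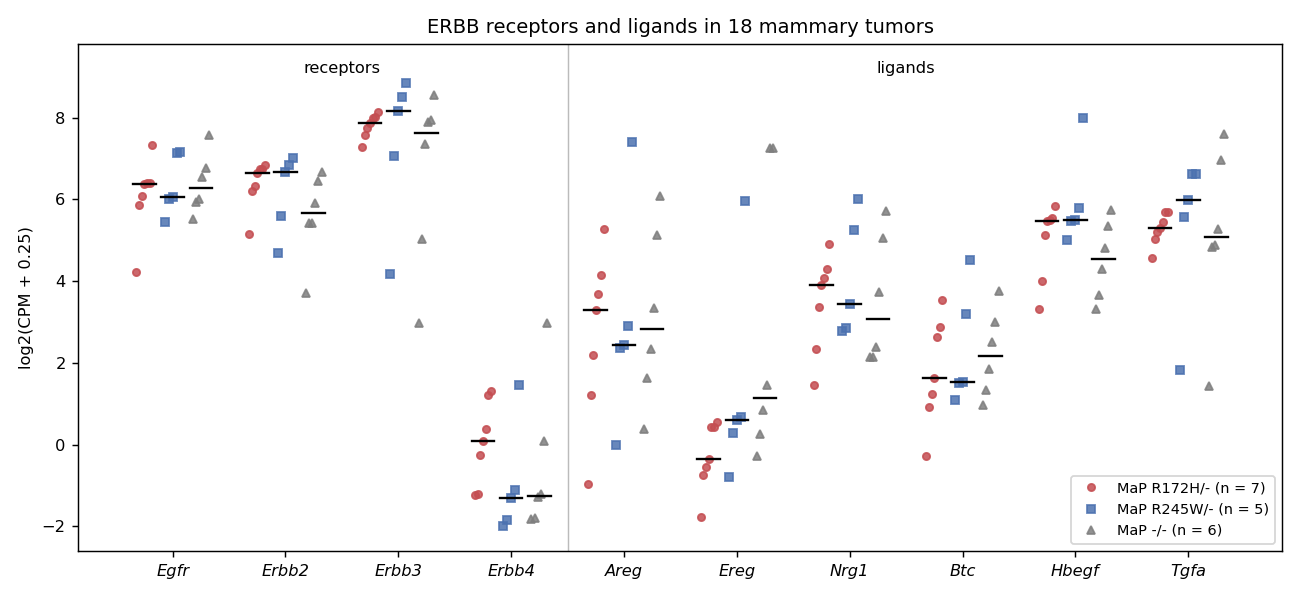
Level of the 4 receptors and 6 ligands in each tumor as log2(CPM + 0.25), by genotype (7 MaP R172H/-, 5 MaP R245W/- and 6 MaP -/- tumors), with the group median as a black line. The groups overlapped for all 10 genes, and Ereg lay above 50 CPM in 3 tumors and below 3 CPM in the other 15.

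The levels of the members were compared with each other as CPM per kilobase of exon, since long genes collect more counts. Erbb3 was the most abundant receptor, with a median of 37.1 CPM per kb over the 18 tumors (range 1.20 to 72.6). Erbb2 followed at 15.3 CPM per kb (2.38 to 23.8) and Egfr at 6.50 CPM per kb (1.59 to 16.3). Erbb4 was nearly silent at 0.0156 CPM per kb (0 to 0.592) and was the lowest receptor in all 18 tumors. Erbb3 was above Erbb2 in 15 of 18 tumors, and Egfr was the highest receptor in the remaining 3, which were JM1233, JM663-T2 and JM779-T1.

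Of the ligands, Hbegf had a median of 8.24 CPM per kb, Tgfa 6.06 CPM per kb and Areg 5.09 CPM per kb. Nrg1 at 0.712, Btc at 0.676 and Ereg at 0.246 CPM per kb were lower. Neighbours in this order were often not separated: Hbegf was above Egfr in 11 of 18 tumors, Egfr was above Tgfa in 7 and Tgfa above Areg in 9. Nrg1 was above Btc in 8 of 18 tumors. The clearer steps were Areg over Nrg1, in 16 of 18 tumors, and Btc over Ereg, in 15, although the ranges of both pairs overlapped. Within the MaP R172H/- group, the range of Erbb3 lay above that of Erbb2 and the range of Tgfa above that of Nrg1, in 7 of 7 tumors each. Per kilobase of exon, the most abundant ligand was Tgfa in 7 tumors, Areg in 6, Hbegf in 4 and Ereg in 1, JM663-T2. This tally depends on the gene length used and was not recomputed with another. With the longest transcript as gene length, the medians over the 18 tumors were 14.6 CPM per kb for Hbegf, 8.78 for Tgfa and 5.09 for Areg.

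**Figure D2:**
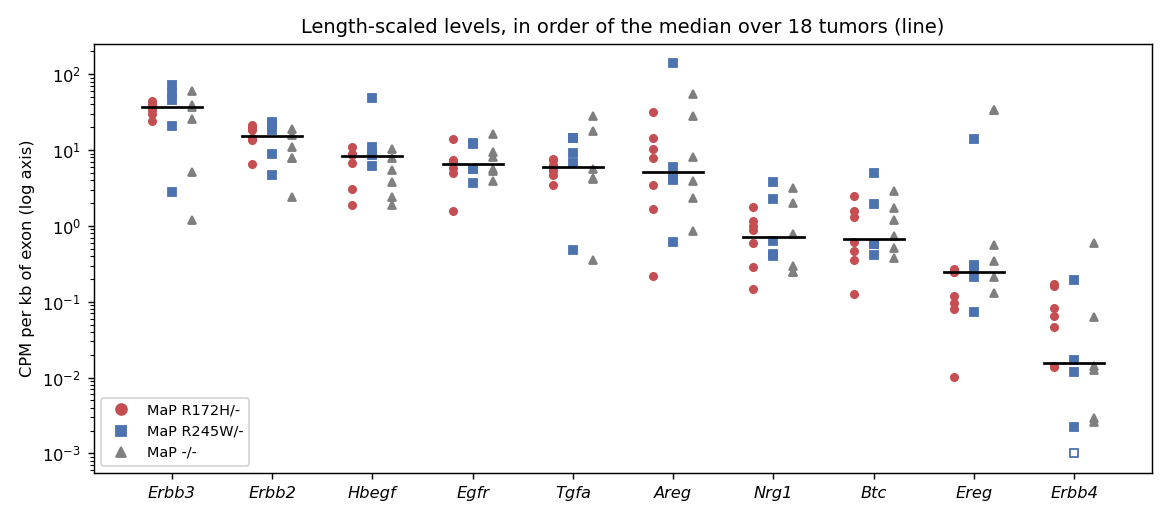
CPM per kilobase of exon (log axis) of each member in each tumor, ordered by the median over the 18 tumors (black line), with an open symbol at the bottom for the tumor in which Erbb4 had no count. Erbb3 and Erbb2 led, Erbb4 was the lowest, and Areg and Ereg spread the most.

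Erbb2 overlapped between the genotypes. In the MaP R172H/- tumors it ran from 35.04 to 115 CPM with a median of 99.9 CPM. In the MaP R245W/- tumors it was 25.7 CPM in JM1233, 101 CPM in JM1564, 115 CPM in RM0014, 48.3 CPM in JM1126 and 129 CPM in JM1133. In the MaP -/- tumors it ran from 12.9 to 102 CPM with a median of 51.3 CPM. The highest level of the series was thus in a MaP R245W/- tumor and the lowest in a MaP -/- tumor, and both groups are triple-negative by the study's qRT-PCR typing. By edgeR's quasi-likelihood test, with p-values adjusted over all genes by the Benjamini-Hochberg method (FDR), the log2 fold change of MaP R172H/- over MaP -/- was 0.64 (SE 0.39, FDR 0.323). It was 0.53 (SE 0.51, FDR 0.697) for MaP R245W/- over MaP -/-, and 0.07 (SE 0.44, FDR 0.936) for MaP R172H/- over MaP R245W/-. None of these passed the threshold of 0.05. The 95% interval of the difference between the mutants ran from -0.85 to 1.0 on the log2 scale. With an epithelial score as a covariate, the first difference was 0.25 (FDR 0.424).

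The study typed the MaP R172H/- tumors by qRT-PCR as luminal B, except YZ6, which was typed as HER2-enriched. In that typing, luminal B tumors had Erbb2 together with Esr1, Pgr or both, and the HER2-enriched type had Erbb2 alone. The type thus does not call for a higher Erbb2 level in YZ6 than in the luminal B tumors. Whether YZ6 stood out for Erbb2 in the libraries was examined as a description, since 1 tumor allows no test. Erbb2 was at 79.4 CPM in YZ6, which ranked 10 of 18 in the series and 5 of 7 in its group. This was 0.768 times the median of the other 6 MaP R172H/- tumors (103 CPM, range 35.04 to 115 CPM). The ratio was 0.794 with CPM on total counts, 0.882 relative to the mean of the luminal keratins Krt8 and Krt18, and 0.742 to 0.795 with each of the other 6 tumors left out. YZ6 thus lay inside the range of its group for Erbb2.

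The genes beside Erbb2 on chromosome 11 were mostly below the median of the other 6 tumors in YZ6. Of 12 neighbours, 9 had a median above 1 CPM in the other 6 tumors, and 8 of these 9 were below that median in YZ6, with ratios of 0.496 to 1.23 over the 9. Fbxl20 (81.8 CPM against 87.4 to 110 CPM) and Pgap3 (13.03 CPM against 14.0 to 24.2 CPM) were below the range of the other 6. The one above it was Stard3, a lipid transfer protein gene, at 69.3 CPM against a median of 56.3 CPM. Grb7, an adaptor gene that is often co-amplified with HER2 in human tumors, was at 29.9 CPM in YZ6 against a median of 32.8 CPM. YZ6 was inside the range of the other 6 tumors for 9 of the 10 members, and the exception was Erbb3, at 281 CPM against 154 to 259 CPM. The hormone receptor genes were at 7.04 CPM (Esr1) and 1.88 CPM (Pgr) in YZ6, against medians of 11.1 and 2.12 CPM in the other 6.

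**Figure D3:**
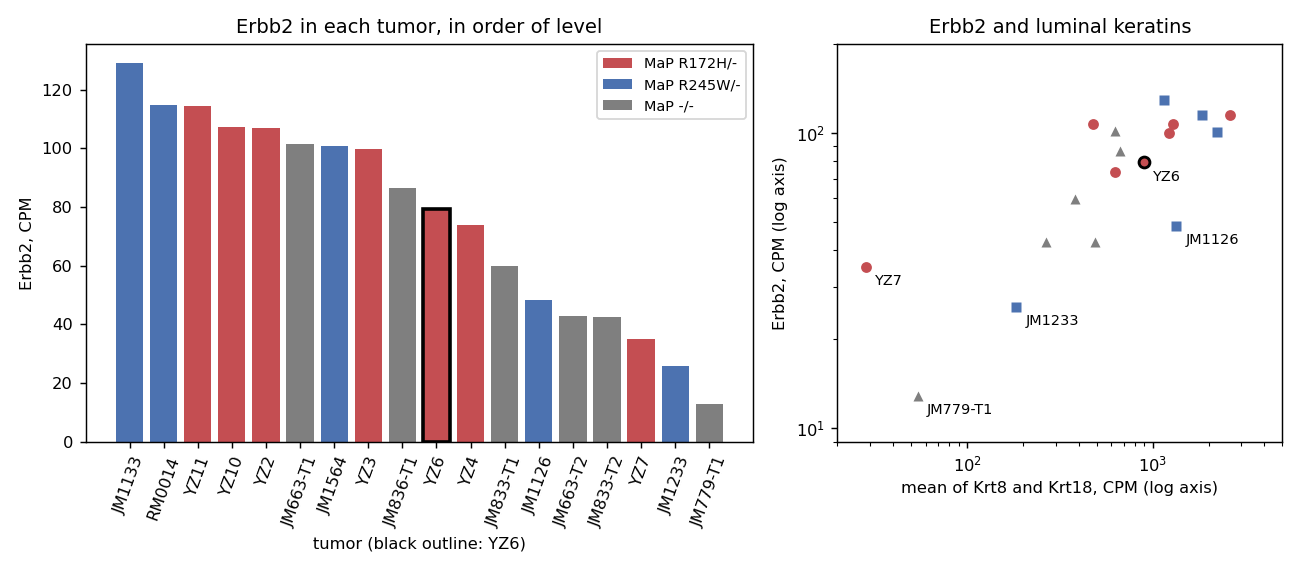
Left: Erbb2 in CPM in each tumor as a bar, in order of level, coloured by genotype, with YZ6 outlined in black. Right: Erbb2 against the mean of Krt8 and Krt18 in the same tumors, both in CPM on log axes and in the same colours; YZ6 (79.4 CPM) lies among the other tumors, and YZ7, JM1233 and JM779-T1 lie apart at low keratin.

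At its low end, Erbb2 moved with the sum of the 20 epithelial markers. The 3 lowest tumors for Erbb2, JM779-T1 (12.9 CPM), JM1233 (25.7 CPM) and YZ7 (35.04 CPM), were also the 3 with the lowest sum of epithelial markers, at 192, 591 and 592 CPM. The keratin mean was 28.7 CPM in YZ7, 54.4 CPM in JM779-T1 and 185 CPM in JM1233, against 268 to 2619 CPM in the other 15 tumors. The epithelial list holds none of the 9 basal (myoepithelial) markers. Their sum was 2362 CPM in YZ7, 593 CPM in JM1233 and 57.6 CPM in JM779-T1. The low epithelial sum of YZ7 thus need not mean few epithelial cells. The part of cell content in the Erbb2 level was not tested beyond the covariate above. The 3 genes most like Erbb2 over the 18 tumors, by Spearman correlation among 14055 protein-coding genes, were Tmem79 (rho 0.92), Clu (0.91) and Arrdc1 (0.91), and each stayed at 0.86 or above within the 7 MaP R172H/- tumors. The RefSeq window of the 250 bases before the Erbb2 start is shown because the gene names the subtype. It lies at chr11:98412234-98412483 on the + strand of GRCm38.p6, with a GC content of 66.0%.

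Erbb2: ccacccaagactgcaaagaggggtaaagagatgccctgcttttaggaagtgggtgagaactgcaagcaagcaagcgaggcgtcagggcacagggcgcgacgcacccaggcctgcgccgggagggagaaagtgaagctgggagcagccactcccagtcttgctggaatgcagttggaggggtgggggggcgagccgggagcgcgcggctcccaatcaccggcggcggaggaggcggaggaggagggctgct

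Both strands of this window were searched for TATAAA (the TATA box), TGACGTCA (the cyclic AMP response element), TGANTCA (AP-1) and GCCNNNGGC (AP-2), and none of the 4 was found. These letters occur in 12.4%, 1.55%, 6.75% and 13.7% of 32851 RefSeq windows of the same length. Windows were searched for 6 of the 10 members, Egfr, Erbb2, Erbb4, Areg, Btc and Tgfa, and not for Erbb3, Ereg, Nrg1 and Hbegf. In the annotation Erbb2 shares 9 bases at its 3' end with Mien1 on the opposite strand.

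Erbb3 also overlapped between the genotypes. In the MaP R172H/- tumors it ran from 154 to 281 CPM with a median of 232 CPM. The 5 MaP R245W/- values were 17.7 CPM in JM1233, 458 CPM in JM1564, 361 CPM in RM0014, 132 CPM in JM1126 and 288 CPM in JM1133. In the MaP -/- tumors it ran from 7.56 CPM in JM779-T1 to 376 CPM in JM663-T1. The MaP R172H/- tumors formed the tightest group, with a coefficient of variation of 19.4% against 70.3% and 79.0% in the MaP R245W/- and MaP -/- tumors, a difference in spread that was not tested. The log2 fold change was 0.39 (SE 0.59, FDR 0.722) for MaP R172H/- and 0.50 (SE 0.87, FDR 0.836) for MaP R245W/- over MaP -/-, and -0.15 (SE 0.69, FDR 0.918) between the mutants. Without JM663-T2 and JM779-T1 the first was -0.13 (FDR 0.772), and with the epithelial covariate the second was -0.33 (FDR 0.761).

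YZ7 kept Erbb3 at 259 CPM, the second highest value of its group, at an epithelial sum of 592 CPM. In the same tumor the 8 Schwann cell markers, from the glia of peripheral nerve where Erbb3 is also used, had a sum of 1160 CPM, the highest of the series, against 165 to 536 CPM in the other MaP R172H/- tumors. The 9 basal (myoepithelial) markers of YZ7 had a sum of 2362 CPM, against 319 to 699 CPM in the other MaP R172H/- tumors except YZ4 (3666 CPM), and 57.6 CPM in JM779-T1 and 593 CPM in JM1233. JM779-T1 and JM1233, the other tumors with a low epithelial sum, had Erbb3 at 7.56 and 17.7 CPM and Schwann sums of 24.6 and 63.3 CPM. The part of Schwann or basal cells in the Erbb3 level was not tested. The genes most like Erbb3 were Zfp507, Arnt2 and Col9a1, each at a rho of 0.92 over 18 tumors. Of these, Arnt2 fell to 0.46 within the MaP R172H/- tumors and Col9a1 was at 0.93.

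Egfr overlapped between the genotypes. It ran from 18.4 to 162 CPM in MaP R172H/- tumors (median 82.9 CPM) and from 45.7 to 189 CPM in MaP -/- tumors (median 78.8 CPM). Among the MaP R245W/- tumors the level was 141 CPM in JM1233, 65.9 CPM in JM1564, 64.1 CPM in RM0014, 143 CPM in JM1126 and 43.1 CPM in JM1133. The log2 fold changes were -0.20 (SE 0.42, FDR 0.802), -0.04 (SE 0.42, FDR 0.977) and -0.20 (SE 0.44, FDR 0.815) in the 3 comparisons, in the order used for Erbb2. The 95% interval of MaP R245W/- over MaP -/- ran from -0.95 to 0.87. Slc24a3 (rho 0.86) and Dcstamp (0.85) were among the genes most like Egfr, at 0.50 and 0.93 within the MaP R172H/- tumors.

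Erbb4 was near the limit of detection, with under 10 counts in 10 of 18 tumors. It ran from 0.176 to 2.22 CPM in MaP R172H/- tumors (median 0.821 CPM), and from 0.0330 to 7.56 CPM in MaP -/- tumors (median 0.172 CPM). In the MaP R245W/- tumors it was 2.48 CPM in JM1233, 0.216 CPM in JM1564, 0.0287 CPM in RM0014, 0 in JM1126 and 0.153 CPM in JM1133. The count of 0 in JM1126 allows a level of up to 0.0957 CPM, counting error only. The highest value was in JM833-T1, the tumor with the highest sum of 8 adipocyte markers, 4484 CPM, and that of JM1233 came with the highest skeletal muscle sum; the part of these cells was not tested. The log2 fold change of MaP R172H/- over MaP -/- was -0.49 (SE 1.06, FDR 0.813), but 2.06 (FDR 0.153) without JM833-T1, so that 1 tumor set its direction. Erbb4 was too low to be tested in MaP R245W/- against MaP -/- tumors, and the difference between the mutants was 0.81 (SE 1.27, FDR 0.733). Flt3l (rho 0.83), Lsamp (0.80) and Zbtb20 (0.80) were most like Erbb4 over the 18 tumors. Within the MaP R172H/- tumors their rho was 0.39, 0.82 and 0.11.

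Ereg was the 1 member of 10 called in MaP R172H/- against MaP -/- tumors, where 8.40% of 20954 genes tested were called, and 2 of the 6 MaP -/- tumors held its high values. Its level was 152 CPM in JM663-T2 and 152 CPM in JM779-T1, both MaP -/-, and 61.6 CPM in the MaP R245W/- tumor JM1126. In the other 15 tumors it lay between 0.0451 and 2.51 CPM. The 7 MaP R172H/- tumors ran from 0.0451 to 1.21 CPM with a median of 0.534 CPM, and the other 4 MaP -/- tumors had 1.54 CPM (JM836-T1), 2.51 CPM (JM663-T1), 0.956 CPM (JM833-T1) and 0.574 CPM (JM833-T2). The groups overlapped, as they did for all 10 members, where 4.62% of genes tested had groups that did not overlap.

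The fitted log2 fold change of Ereg in MaP R172H/- over MaP -/- tumors was -6.23 (SE 1.44, 95% interval -9.32 to -3.14, FDR 0.0176). The FDR stayed between 0.0129 and 0.0394 when any 1 of the 13 tumors was left out. Without JM663-T2 and JM779-T1 together, an exclusion chosen after their Ereg level was seen, the difference was -0.98 (FDR 0.374) and no member was called. With the epithelial score as a covariate it was -5.06 (FDR 0.0694), also not called. Against MaP R245W/- tumors, the Ereg difference was -4.25 on the log2 scale (SE 1.51, FDR 0.0851), which missed the threshold with edgeR and passed it with DESeq2's Wald test (-4.30, adjusted p 0.00970). Without JM1126 that difference was -0.50 (FDR 0.858). MaP R245W/- and MaP -/- tumors differed by -1.97 (SE 1.78, FDR 0.677).

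The 2 tumors of mouse JM663 differed widely. Ereg was 60.7 times higher in JM663-T2 than in JM663-T1, and Epgn, the gene of epigen, another ligand of Egfr, was 18.8 times higher (30.7 against 1.63 CPM). Erbb3 went the other way, at 32.7 CPM in JM663-T2 and 376 CPM in JM663-T1, 11.5 times higher. The epithelial sums were 2507 and 4314 CPM. The 3 tumors high in Ereg had epithelial sums of 192 CPM (JM779-T1), 2507 CPM (JM663-T2) and 5312 CPM (JM1126). Single markers of that list were low in all 3: Grhl2, an epithelial transcription factor gene, was at 3.14, 40.1 and 34.8 CPM, and Esrp2, an epithelial splicing factor gene, at 2.49, 22.5 and 22.3 CPM, with YZ7 and JM1233 as the only other tumors at these levels or below. The part of cell content in the Ereg level was not tested beyond the covariate above.

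Epgn, Ereg, Areg and Btc lie side by side on chromosome 5 within 376 kb (GRCm39). Epgn spans chr5:91175323-91183074, Ereg chr5:91222157-91241505 and Areg chr5:91287451-91296291 on the + strand, and Btc spans chr5:91505120-91550883 on the - strand. Areg was highest in the same tumors, at 170 CPM in JM1126, 67.3 CPM in JM779-T1 and 34.6 CPM in JM663-T2, with the MaP R172H/- tumor YZ4 among them at 38.3 CPM. Ereg in YZ4 was at 1.09 CPM, so a high Areg level came without Ereg there. Btc was highest in JM1126 (22.8 CPM) and JM779-T1 (13.3 CPM) but was at 3.33 CPM in JM663-T2.

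**Figure D4:**
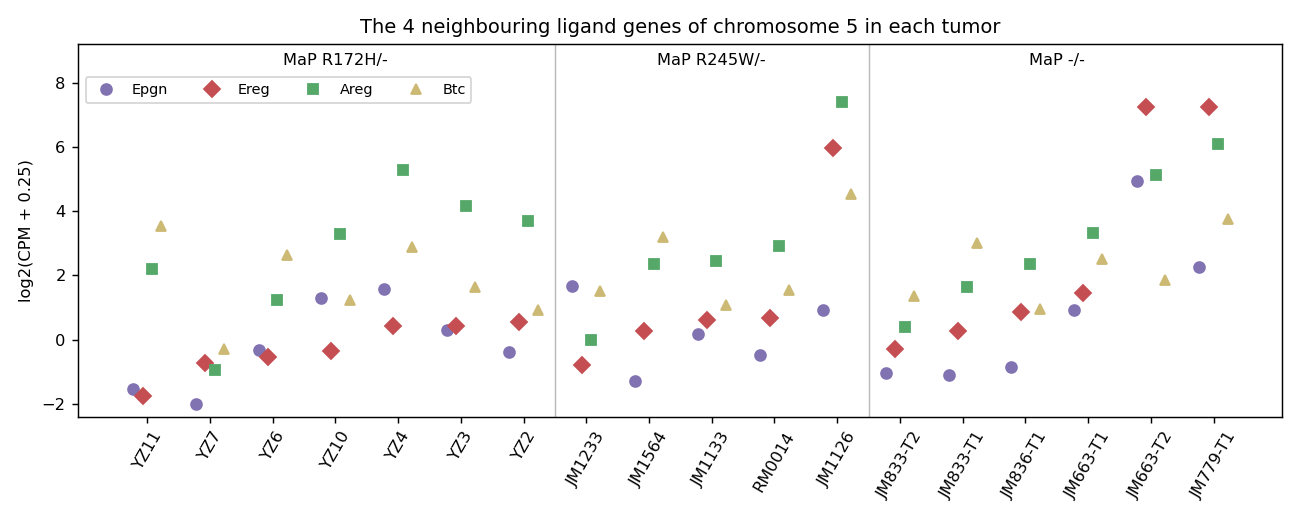
Epgn, Ereg, Areg and Btc in each tumor as log2(CPM + 0.25), with the tumors of each genotype in order of their Ereg level. Ereg (red) rises above 50 CPM in JM1126, JM663-T2 and JM779-T1, where Areg (green) is also high, while Areg in YZ4 is high without Ereg.

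Areg ran from 0.264 to 38.3 CPM in MaP R172H/- tumors (median 9.54 CPM) and from 1.05 to 67.3 CPM in MaP -/- tumors (median 7.31 CPM). Among the MaP R245W/- tumors the level was 0.746 CPM in JM1233, 4.88 CPM in JM1564, 7.25 CPM in RM0014, 170 CPM in JM1126 and 5.19 CPM in JM1133. The log2 fold changes were -0.73 (SE 0.99, FDR 0.693) for MaP R172H/- and 0.91 (SE 1.32, FDR 0.803) for MaP R245W/- over MaP -/-, and -1.63 (SE 1.21, FDR 0.421) between the mutants. The first became 0.22 without JM779-T1, and without JM1126 the second became -2.19 and the third 1.43, none of which passed the threshold. Its pattern was most like those of Bnc1 (rho 0.91), Rnd3 (0.87) and Iffo2 (0.86), at 0.82 to 0.93 within the MaP R172H/- tumors. The 250 bases before its start are printed because Areg was among the most variable members: they lie at chr5:91139349-91139598 on the + strand (GRCm38.p6, RefSeq), and capitals mark the searched motifs that were found.

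Areg: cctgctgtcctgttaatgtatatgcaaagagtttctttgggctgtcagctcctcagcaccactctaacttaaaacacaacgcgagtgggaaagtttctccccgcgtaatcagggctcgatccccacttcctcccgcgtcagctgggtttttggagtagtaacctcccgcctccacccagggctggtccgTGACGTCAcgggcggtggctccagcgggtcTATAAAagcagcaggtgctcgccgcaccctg

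The window holds TGACGTCA, which starts 61 bases before the transcription start and is found in 1.55% of windows, and TATAAA, which starts 31 bases before it and is found in 12.4%. Of the other windows, that of Tgfa held GCCNNNGGC in 2 places, and those of Egfr, Erbb4 and Btc held none of the 4 motifs. A match describes the letters and is not evidence of binding.

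Over mice, with tumors of 1 mouse summed, Pearson and Spearman correlations of log2 CPM were computed for all 45 pairs of members. No pair reached an adjusted p below 0.05 by both measures in 16 mice (permutation test, 100000 resamples, two-sided), and 1 pair did over the 18 tumors, Areg with Ereg. For Areg and Ereg no pooled value over mice is given, because JM1126, JM663 and JM779 form a cluster of their own. Over the other 13 mice, a choice made after seeing the data, r was 0.52 (permutation p 0.0688) and rho 0.57 (permutation p 0.0448), and r was 0.46 without the 2 mice farthest from the median of Areg. Within the 7 HiSeq mice r was 0.62 (exact permutation p 0.140) and rho 0.75 (exact permutation p 0.0663). For the same reason no value is given within the 9 NovaSeq mice, which hold JM1126, JM663 and JM779. Erbb2 and Erbb3 had r = 0.86 (permutation p 0.00023, adjusted 0.0104) and rho = 0.63 (permutation p 0.0112, adjusted 0.167) in 16 mice. Without the 2 mice farthest from the median of Erbb2, r was 0.42. Within the 7 HiSeq mice r was -0.22 (exact permutation p 0.616) and rho -0.29 (exact permutation p 0.556). Within the 9 NovaSeq mice, which hold JM779 and JM1233, r was 0.96 (exact permutation p 0.00016) and rho 0.92 (exact permutation p 0.00131). The 7 HiSeq mice are the MaP R172H/- mice, so instrument and genotype cannot be told apart here. The difference between these 2 sets of mice was not tested.

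Nrg1, the neuregulin that binds Erbb3 and Erbb4, ran from 2.48 to 29.5 CPM in MaP R172H/- tumors (median 14.7 CPM) and from 4.14 to 52.1 CPM in MaP -/- tumors (median 9.07 CPM). The 5 MaP R245W/- values were 37.7 CPM in JM1233, 10.6 CPM in JM1564, 6.60 CPM in RM0014, 63.8 CPM in JM1126 and 7.03 CPM in JM1133. High values came in tumors with many fibroblast transcripts, JM1126 (33708 CPM) and JM1233 (15859 CPM), but also in JM663-T2 (7287 CPM) and JM779-T1 (4613 CPM), and the part of fibroblasts was not tested. The log2 fold changes were -0.41 (SE 0.69, FDR 0.757), 0.44 (SE 0.83, FDR 0.853) and -0.85 (SE 0.75, FDR 0.505) in the 3 comparisons. The first was 0.23 without JM663-T2 and the second -0.28 without JM1126. Epgn was the gene most like Nrg1 (rho 0.86), followed by Bdkrb2 (0.85) and Snx7 (0.84).

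Over all 18 tumors Hbegf and Tgfa had the highest medians of the ligands per kilobase. In the MaP -/- tumors the median of Areg (5.98 CPM per kb of exon) was above those of Tgfa (4.95) and Hbegf (4.58). In the MaP R172H/- tumors Areg (7.81) was above Tgfa (5.74). Both of these orders turned with the longest transcript as gene length. Hbegf (8.10) and Tgfa (7.17) were then above Areg (5.98) in MaP -/- tumors, and Tgfa (8.32) above Areg (7.81) in MaP R172H/- tumors. Hbegf ran from 9.67 to 56.4 CPM in MaP R172H/- tumors (median 43.8 CPM) and from 9.79 to 53.0 CPM in MaP -/- tumors (median 23.4 CPM). In the MaP R245W/- tumors it was 55.3 CPM in JM1233, 44.4 CPM in JM1564, 44.99 CPM in RM0014, 252 CPM in JM1126 and 31.8 CPM in JM1133. Its log2 fold change of 1.66 in MaP R245W/- over MaP -/- tumors (SE 0.61) had an unadjusted p of 0.0184 by edgeR and did not pass the adjustment (FDR 0.364). It was higher in all 5 tumors than the MaP -/- median, and at 0.69 without JM1126. In MaP R172H/- tumors the difference from MaP -/- was 0.43 (SE 0.45, FDR 0.600), and between the mutants it was -1.25 (SE 0.55, FDR 0.159).

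Tgfa ran from 23.4 to 51.8 CPM in MaP R172H/- tumors (median 39.3 CPM) and from 2.46 to 195 CPM in MaP -/- tumors (median 33.9 CPM). The 5 MaP R245W/- values were 3.28 CPM in JM1233, 63.5 CPM in JM1564, 98.4 CPM in RM0014, 98.2 CPM in JM1126 and 46.8 CPM in JM1133. The lowest values were again in JM779-T1 and JM1233. Its log2 fold changes were -0.77 (SE 0.63, FDR 0.479), -0.17 (SE 0.92, FDR 0.955) and -0.64 (SE 0.72, FDR 0.619). Btc ran from 0.572 to 11.3 CPM, from 1.87 to 22.8 CPM and from 1.69 to 13.3 CPM in the MaP R172H/-, MaP R245W/- and MaP -/- tumors. Its log2 fold changes were -0.32 (SE 0.64, FDR 0.801), 0.46 (SE 0.73, FDR 0.819) and -0.79 (SE 0.73, FDR 0.530).

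**Figure D5:**
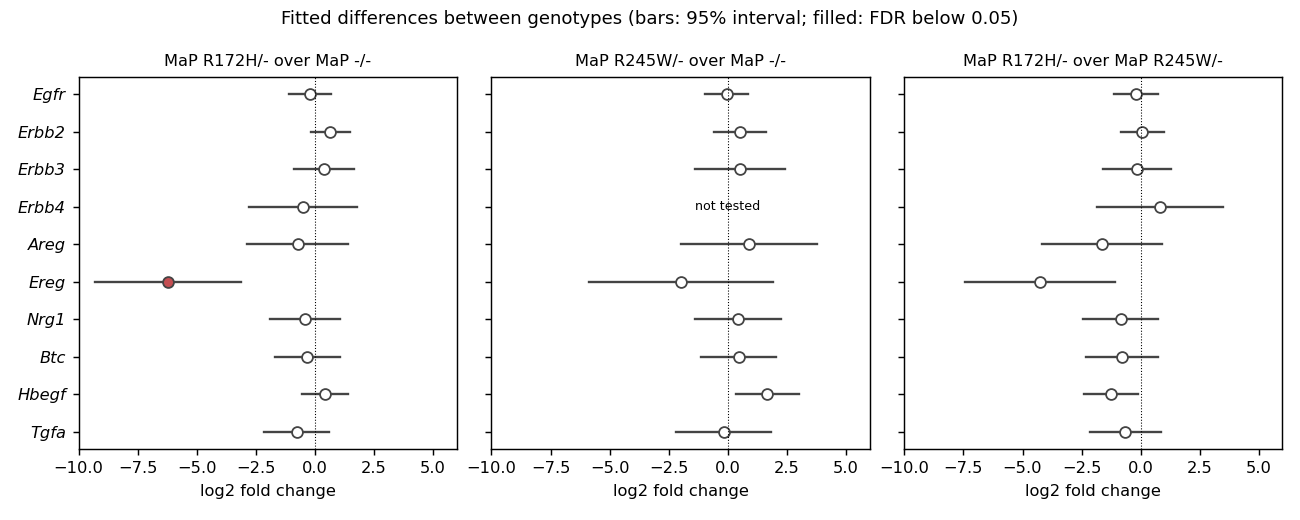
Fitted log2 fold change of each member in the 3 comparisons (points) with its 95% interval (bars), filled where the FDR was below 0.05. Ereg in MaP R172H/- over MaP -/- tumors, at -6.23, is the one filled point, and Erbb4 was not tested in MaP R245W/- over MaP -/- tumors.

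Across the members, 1 of 10 was called in MaP R172H/- against MaP -/- tumors and 0 of 9 tested in MaP R245W/- against MaP -/- tumors, where edgeR called 0% of 21452 genes and 11.8% had an unadjusted p below 0.05. Of the members, 1 of these 9, Hbegf, had an unadjusted p below 0.05, and DESeq2's Wald test called none of the members and 424 genes in all. Between the mutants edgeR called 0 of 10 members, against 9.40% of 22481 genes. Its unadjusted p was below 0.05 for 2 of 10 (Ereg and Hbegf), against 25.9% of these genes. DESeq2's Wald test called 1 member, against 12.3% of 29957 genes. Groups that did not overlap were seen for 0 of 10 members in each comparison, against 1.32% of genes for MaP R245W/- over MaP -/- and 5.83% between the mutants. The median log2 fold change of the members was -0.36, 0.46 and -0.72 in the 3 comparisons, against 0.00, 0.02 and 0.00 over all genes tested. The comparisons share their MaP -/- or mutant tumors, so these medians are not independent. JM1126 had the highest level of the series for 4 of the 6 ligands (Areg, Nrg1, Btc and Hbegf), and the lowest level was in YZ7 for 3 members (Egfr, Areg and Btc) and in JM779-T1 for 3 (Erbb2, Erbb3 and Tgfa).

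Beyond the members, 77 genes of the pathway and of the Erbb2 neighbourhood were listed: other ligands, shedding proteases, feedback inhibitors, adaptors and effectors, genes induced by ERK, and neighbours of Erbb2. In MaP R172H/- against MaP -/- tumors, 8 of 73 tested were called higher and 4 lower, which is 16.4% against 8.40% of all genes tested. Of the other ligands, 0 of 4 tested were called, and Epgn had the largest difference, at -2.59 (SE 1.23, FDR 0.214). Of the 6 shedding genes none was called by edgeR, and Adam9 differed most, at -0.53 (FDR 0.241). Among them 2 had an unadjusted p below 0.05, against 24.7% of all genes tested. Of 16 genes listed under feedback, Lrig2 and Spred1 fell by 0.65 (FDR 0.0400) and 0.74 (FDR 0.0336) on the log2 scale. Spred1 dampens Ras signaling. Of 26 adaptors and effectors, the Ras gene Hras and the ERK gene Mapk3 each rose by 0.57 (FDR 0.0429 and 0.0403).

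Genes induced by ERK moved in both directions. Of 13, the cell cycle gene Ccnd1 rose by 1.39 (FDR 0.0142), the AP-1 gene Junb by 1.28 (FDR 0.0390) and Myc by 1.01 (FDR 0.0121), while Fos fell by 1.04 (FDR 0.0483) and the transcription factor gene Etv1 by 1.87 (FDR 0.0367). Ccnd1 was the 1 of these whose groups did not overlap, at 283 to 579 CPM in MaP R172H/- and 64.6 to 237 CPM in MaP -/- tumors. Of 9 tested neighbours of Erbb2, Pgap3 rose by 1.29 (FDR 0.00629, no overlap), Mien1 by 0.72 (FDR 0.0430) and Cdk12, a kinase gene, by 0.52 (FDR 0.0372), beside the uncalled 0.64 of Erbb2. Markers of other cells differed in the same comparison. All 20 epithelial markers were above 0 (median 1.22, 0 called by edgeR, 2 with an unadjusted p below 0.05), and 3 of 10 fibroblast, 2 of 10 immune and 2 of 8 endothelial markers were called lower. The 9 basal markers were also all above 0 (median 2.48, 0 called by edgeR, 6 with an unadjusted p below 0.05), as were the 8 Schwann cell markers (median 1.40, 0 called, 3 below 0.05). The 8 adipocyte markers were all below 0 (median -2.91, 0 called, 2 below 0.05). Of all genes tested in this comparison, 8.40% were called and 24.7% had an unadjusted p below 0.05. The part of cell content in the pathway genes was not tested.

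In MaP R245W/- against MaP -/- tumors 0 of 73 of these genes were called. The largest differences by list were Epgn at -2.36 (FDR 0.501), Adam12 at 1.26 (FDR 0.484), the ERK phosphatase gene Dusp5 at 1.66 (FDR 0.385), Grb7 at 0.87 (FDR 0.678), Junb at 0.93 (FDR 0.427) and Ikzf3 at -2.55 (FDR 0.406). Between the mutants, 1 of 74 was called higher in MaP R172H/- tumors (Cdk12, 0.54, FDR 0.0336) and 4 lower, which is 6.76% against 9.40% of all genes tested. These were Spred1 at -0.89 (FDR 0.00816, groups without overlap), Dusp5 at -2.01 (FDR 0.0429), Etv1 at -2.23 (FDR 0.0310) and Tcap, a muscle gene beside Erbb2, at -4.87 (FDR 0.00574). In that comparison 8 of 8 tested skeletal muscle markers were lower as well, and 7 of them were called. The sums of the skeletal muscle list were 6.66 to 22.0 CPM in MaP R172H/- and 5.59 to 1213 CPM in MaP R245W/- tumors. The largest adaptor difference against MaP -/- tumors was Grb7 at 1.21 (FDR 0.306) and the largest feedback difference Cblc at 0.99 (FDR 0.405), both in MaP R172H/- tumors and not called. Of the hormone receptor genes, Esr1 was called in no comparison (log2 fold changes of -0.59, -0.67 and 0.04), and Pgr differed between the mutants by 4.48 (SE 1.38, FDR 0.0484), with 81.5 CPM in YZ4 and 0.396 to 2.93 CPM in the other MaP R172H/- tumors against 0.247 to 0.878 CPM in MaP R245W/- tumors.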

How the data were processed

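Total RNA of 18 tumors was depleted of ribosomal RNA and sequenced as stranded libraries. The authors checked the reads with FastQC 0.11.9 and mapped them to GRCm39 with STAR 2.7.10b. Genes of GENCODE M34 were then quantified by RSEM 1.3.3. What they deposited is a table of raw counts in whole numbers, and whether the counting used strand is not given in the sources used here. Of 57126 genes, 56620 matched GENCODE M39, which gave names, positions and exon lengths.

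Each mutant group was compared with MaP -/- in a fit of its own, and the mutants in a fit of all 18 tumors, with edgeR 4.0.16 in R 4.3.3 (TMM, filterByExpr, quasi-likelihood test). A gene was called at an FDR below 0.05 over all genes tested, and SE was derived from the F statistic. The 95% intervals use the fit's degrees of freedom. DESeq2 1.42.0 was an alternative. CPM was log2-transformed with a pseudocount of 0.25 for scores and correlations. The epithelial score summarised 20 epithelial markers. Scripts were tested on simulated data. Correlations and figures were made in Python 3.11.15 (pandas 2.3.3, numpy 2.4.6, scipy 1.17.1, matplotlib 3.10.9).

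Named genes were the 10 members, of the pathway lists each gene called in any comparison and the largest difference per list against MaP -/- tumors, Esr1, Pgr, Trp53, and the 3 genes most like each of 6 members by Spearman correlation (mean of at least 1 CPM), of which 1 is not reported here. Stard3, Fbxl20, Grhl2, Esrp2, and the values of Grb7 and Pgap3 in YZ6, were named after seeing the data. The members and lists were chosen with earlier results of these data known. Alternatives were DESeq2's size factors, other filters and fold change thresholds, tumors of 1 mouse summed, other sets of tumors in the fit, an epithelial covariate and each tumor left out. P-values measure the spread between these tumors, and the 2 tumors of JM663 and of JM833 share a mouse. For mice JM779 and JM836 the labels and the study name different tumors as sequenced, so no histology was used. Counting limits cover counting error only.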

Additional observations from a re-analysis of the deposited data

Results flagged for a closer look

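In 5 of 30 groups of 1 member and 1 genotype, a tumor stood apart from the others by Dixon's criterion at the 95% level on log2(CPM + 0.25), a criterion that chance meets in about 1 group in 20. Erbb2 was low in YZ7 among the MaP R172H/- tumors, at 35.04 CPM. In the MaP R245W/- tumors, JM1126 was high for Ereg (61.6 CPM) and for Hbegf (252 CPM). JM1233 was high for Erbb4 (2.48 CPM) and low for Tgfa (3.28 CPM). YZ7 and JM1233 had the lowest sums of epithelial markers of their groups, and JM1126 the highest sum of fibroblast markers of the series. The part of cell content in these values was not tested. Ereg was not singled out in the MaP -/- group, where 2 tumors were high together.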

How the results depend on the processing

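Of 313 log2 fold changes of members listed under settings other than leaving out 1 tumor, 290 kept their direction and side of the threshold. The 313 include fold change thresholds of 1 and 2 on the log2 scale, which were set on the unchanged main fit. Under these thresholds each direction is kept by construction, so those rows are no test of it. The count called in MaP R172H/- against MaP -/- tumors, 1, was 0 with at least 10 counts required in every tumor (Ereg was then not tested), 0 with the epithelial covariate and 0 without the tumors above 50 CPM for Ereg. Between the mutants it was 1 with DESeq2's Wald test in place of 0. The number of correlated pairs, 0, was 1 over 18 tumors. Leaving out any 1 tumor changed no call.

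These directions turned, none past the threshold. With the epithelial covariate they were Areg in MaP R172H/- over MaP -/- (0.44) and Erbb3 in MaP R245W/- over MaP -/- (-0.33) and between the mutants (0.20). For Egfr in MaP R245W/- over MaP -/- they were 0.016 with DESeq2's Wald test and 0.12 with tumors of 1 mouse summed. Without the tumors high in Ereg (chosen after seeing the data) they were Erbb3 (-0.13), Areg (1.43), Nrg1 (1.12) and Btc (0.10) in MaP R172H/- over MaP -/-, Areg (-0.046) and Btc (-0.11) in MaP R245W/- over MaP -/-, and Egfr (0.035), Erbb2 (-0.067), Areg (1.43) and Btc (0.18) between the mutants. Without YZ7, JM1233 and JM779-T1 (also chosen then) they were Areg (0.44), Nrg1 (0.0051) and Btc (0.36) in MaP R172H/- over MaP -/-, and Egfr (0.18) and Erbb2 (-0.019) between the mutants. Ereg then stayed called in MaP R172H/- over MaP -/- (FDR 0.0484). The cause was not tested.

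When 1 tumor at a time was left out, the ranges that crossed 0 in MaP R172H/- over MaP -/- were -0.73 to 0.23 for Nrg1, -0.51 to 0.12 for Egfr, -0.81 to 2.06 for Erbb4, -1.40 to 0.22 for Areg and -0.75 to 0.16 for Btc. In MaP R245W/- over MaP -/- they were -0.42 to 0.46 for Tgfa, -0.26 to 0.29 for Egfr, -2.19 to 1.82 for Areg, -0.28 to 1.08 for Nrg1 and -0.52 to 0.91 for Btc. Between the mutants they were -0.47 to 0.037 for Egfr, -0.16 to 0.28 for Erbb2, -0.45 to 0.18 for Erbb3, -2.28 to 1.43 for Areg and -1.21 to 0.17 for Btc. No paired analysis was possible because the labels give the groups no shared replicate numbers. With the longest transcript as gene length, Egfr and Tgfa exchanged places in the order of medians over all 18 tumors. The median of Areg then lay below that of Tgfa in MaP R172H/- tumors, and below those of Tgfa and Hbegf in MaP -/- tumors. The most abundant ligand of each tumor was not recomputed with that length. Depth limits Erbb4 most, with under 10 counts in 10 of 18 tumors.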
